A study of Mus musculus with 6 samples.

Results

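The genes described here are the immediate early and growth response genes, a set of 45 transcription factors, phosphatases, RNA-decay factors and signalling proteins whose RNAs are made within minutes of a stimulus. They were chosen by symbol, with earlier results of these data known, and every probe set annotated to exactly 1 of the listed symbols was used. Of the 45 genes, 43 were found, with 66 of the 22690 probe sets on the array, and Dusp5 and Csrnp1 were not analysed here. Of these, 38 genes with 53 probe sets were bright enough to be tested, out of 8619 genes with 14707 probe sets tested in all. Fosb, Fosl1, Egr3, Nr4a3 and Ptgs2 had no probe set above the filter on low signals, which left out the lowest 35% by mean log2 signal.

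RNA came from epididymal white adipose tissue (WAT) of male C57BL/6 mice, 9 to 11 weeks old by the study's methods, killed at Zeitgeber time (ZT) 18, in the middle of the dark phase. The 3 TSR samples came from the last of 5 days of timed sleep restriction, in which mice were kept awake by gentle handling for 6 h per day from ZT0 to ZT6. The 3 control samples were collected at ZT18 without restriction. TSR tissue was therefore taken 12 h after the last handling ended, and arrays of other time points were not analysed here. Each sample was hybridised to 1 Affymetrix mouse array, and the values are MAS5 signals on a linear scale, in arbitrary units scaled to the same level on each array. Whether the samples came from separate animals is not given in the labels, so the p-values measure the spread between these samples only. The labels state freezing in liquid nitrogen and Trizol extraction, whereas the study's methods state RNAlater and a lipid tissue kit.

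Adipocyte markers were bright in all samples, with a summed signal of the 10 measured markers of 79497 to 92814 on the TSR arrays and 89503 to 105081 on the control arrays. Hepatocyte markers stood apart between the groups. All 15 measured genes had a higher mean signal in TSR, and their sum was 12715 to 13288 on the TSR arrays, against 401 to 476 on the control arrays. Of those tested, 9 of 9 were higher, against 24.0% of all tested genes. The filter used the mean over all arrays, so this count was partly set by it. Bhmt and Cps1, for example, with control means of 20.7 and 18.9, passed the filter only through their TSR signals. Of 12 macrophage markers 11 were lower after TSR, against 23.0% of all tested genes. Their sums were 14832 to 14937 on the TSR arrays and 22045 to 22914 on the control arrays. The log2 signal of the 5′ minus the 3′ control probe set of beta-actin was -0.67 on each TSR array, against -1.23 to -1.20 on the control arrays, and that of Gapdh was 0.07 to 0.17 on the TSR arrays, against -0.60 to -0.48 on the control arrays. No marker of these 3 lists was below the 25th percentile of the array on all arrays. In the control group alone, however, several hepatocyte markers had mean signals under that level, such as Fgb (1.61) and Tat (3.04). The part of these differences in the results below was not tested. In whole tissue, fewer cells of a type cannot be told apart from less RNA per cell.

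Immediate early genes are kept silent but ready, and are switched on without new protein synthesis when kinases such as ERK, JNK and p38 reach transcription factors already bound at their promoters, mainly SRF with its ternary complex partners and CREB. Their first products, the Fos, Jun, Egr and Nr4a proteins, are transcription factors that drive later genes, while the Dusp phosphatases, the Zfp36 RNA-decay proteins and the Socs proteins switch the response off. In adipose tissue the same genes respond to feeding, hormones, nerve input and stretch, and several of them, Egr2 and Klf4 among others, take part in adipocyte differentiation.

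The promoters of 7 members with large changes are shown so that matches to the elements bound by CREB, SRF, AP-1, EGR and SP1 can be seen in place. The sequences are from RefSeq (build GRCm38.p6), cover the 250 bases before the annotated start site and read 5′ to 3′ on the strand of the gene. Capitals mark matches, on either strand, to TGACGTCA (the cAMP response element, CRE), TGACG (its core, also counted inside a CRE), TGANTCA (AP-1), GCGNGGGCG (EGR) and GGGCGG (the GC box bound by SP1 and KLF factors, which can overlap an EGR match), or to the CArG box bound by SRF, which none of the 7 windows held.
Fos promoter (chr12:85473640-85473889, plus strand): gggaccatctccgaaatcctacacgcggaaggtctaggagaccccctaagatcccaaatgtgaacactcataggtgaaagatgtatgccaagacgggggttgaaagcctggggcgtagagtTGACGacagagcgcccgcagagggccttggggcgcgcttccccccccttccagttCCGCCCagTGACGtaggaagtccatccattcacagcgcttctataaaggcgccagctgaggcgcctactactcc
Nr4a1 promoter (chr15:101266596-101266845, plus strand): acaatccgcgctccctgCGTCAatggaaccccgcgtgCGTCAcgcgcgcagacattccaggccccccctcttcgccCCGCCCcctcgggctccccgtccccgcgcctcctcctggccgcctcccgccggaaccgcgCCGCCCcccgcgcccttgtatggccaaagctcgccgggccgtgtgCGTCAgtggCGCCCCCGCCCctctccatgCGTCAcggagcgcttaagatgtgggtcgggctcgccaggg
Socs3 promoter (chr11:117969367-117969616, minus strand): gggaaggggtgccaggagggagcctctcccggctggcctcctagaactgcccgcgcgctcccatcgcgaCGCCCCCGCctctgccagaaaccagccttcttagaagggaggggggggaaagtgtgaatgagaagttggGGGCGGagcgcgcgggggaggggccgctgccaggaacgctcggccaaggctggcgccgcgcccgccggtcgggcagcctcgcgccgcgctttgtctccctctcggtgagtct
Ccn1 promoter (chr3:145649986-145650235, minus strand): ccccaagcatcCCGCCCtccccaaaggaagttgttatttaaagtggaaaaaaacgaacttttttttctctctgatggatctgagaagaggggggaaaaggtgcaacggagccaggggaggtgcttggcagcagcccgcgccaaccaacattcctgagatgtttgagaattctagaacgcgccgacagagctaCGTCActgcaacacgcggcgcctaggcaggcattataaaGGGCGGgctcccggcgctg
Gadd45a promoter (chr6:67037408-67037657, minus strand): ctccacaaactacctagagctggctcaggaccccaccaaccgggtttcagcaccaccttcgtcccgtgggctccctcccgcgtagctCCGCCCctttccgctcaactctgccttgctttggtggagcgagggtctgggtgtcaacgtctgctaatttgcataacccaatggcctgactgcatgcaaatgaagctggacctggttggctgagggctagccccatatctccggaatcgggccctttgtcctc
Ier3 promoter (chr17:35821463-35821712, plus strand): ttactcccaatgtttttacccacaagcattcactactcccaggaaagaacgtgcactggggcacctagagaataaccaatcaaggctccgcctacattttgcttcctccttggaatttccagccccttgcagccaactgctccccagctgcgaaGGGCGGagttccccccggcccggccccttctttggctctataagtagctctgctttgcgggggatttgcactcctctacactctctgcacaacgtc
Maff promoter (chr15:79347270-79347519, plus strand): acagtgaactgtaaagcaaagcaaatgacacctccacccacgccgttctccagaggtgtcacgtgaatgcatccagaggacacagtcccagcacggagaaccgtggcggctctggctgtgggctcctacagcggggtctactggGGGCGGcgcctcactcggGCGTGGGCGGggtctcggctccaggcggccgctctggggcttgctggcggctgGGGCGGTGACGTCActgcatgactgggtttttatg
The Fos window held 2 TGACG cores, 129 and 66 bases before the start site, and the Nr4a1 window held 4, whereas the Ccn1 window held 1, 58 bases before the start. The Gadd45a and Ier3 windows, from genes that were higher after TSR, held 1 GC box each and no other match, and the Maff window held a CRE 29 bases before the start site. Maff has further annotated starts, and the one with the CRE is shown.

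Over the 35 members with a promoter entry, TGACG occurred in 19 (54.3%), against 30.7% of 6984 tested genes with an entry and 19.8% of all 27025 genes with an entry. A member was counted when any of its annotated starts held the match, and the 35 include Fosb, Nr4a3 and Ptgs2, which were not tested. The full CRE occurred in 5 of the 35 members (Maff, Dusp1, Btg2, Plk2 and Errfi1, 14.3%), against 2.86% of tested genes and 1.77% of all genes. The EGR match occurred in 14 members (40.0%), against 10.8% of tested genes and 5.33% of all genes, and the GC box in 30 members (85.7%), against 65.3% and 35.4%. The CArG box occurred in Egr2, Zfp36 and Srf (8.57%), against 1.55% of tested genes and 1.62% of all genes, and the AP-1 match only in Zfp36l1 (2.86%), against 5.71% and 7.82%. Member promoters were also richer in GC than those of tested genes, with a median of 64.8% against 60.0%. By the call of the brightest probe set, TGACG was present in 11 of the 17 members with an entry that were lower after TSR. It was present in 1 of the 5 that were higher. The GC box was in 14 of the 17 lower and 5 of the 5 higher members, and the EGR match in 6 and 2. The full CRE was in 3 and 1, the CArG box in 2 and 0, and the AP-1 match in 1 and 0. With only 5 higher members, no link between a motif and direction can be read from these counts. The 17 include Zfp36l1, whose probe sets were called in opposite directions. These are matches of letters and were not tested. Fosl1, Egr1, Egr3, Zfp36l2, Klf10, Ier2, Ccn2 and Myc had no entry.

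After TSR, lower signals of the immediate early genes outnumbered higher ones. Of 38 tested genes, each by its brightest probe set, 19 were lower (50%) and 6 higher (15.8%), whereas of all 8619 tested genes 23.0% were lower and 24.0% higher (47.0% called in all). The 19 include Zfp36l1, whose other probe set was called higher. By probe set, 27 of 53 were lower and 10 higher, against 21.0% and 25.6% of all tested probe sets (46.6% in all). A call here is a Benjamini-Hochberg adjusted p under 0.05 from limma on log2 signals, over all tested probe sets. Changes of at least 2-fold were seen in 5 genes (13.2%), against 3.09% of all tested genes. Fos, Egr1, Ccn1 and Socs3 were lower by this measure (against 1.40% of all tested genes) and Gadd45a was higher (against 1.68%). By probe set, 5 were at least 2-fold lower and 1 at least 2-fold higher, against 1.21% and 2.21% of all tested probe sets (3.42% in all). The members were chosen as a group known to respond together, with earlier results of these data known. No test of the list was made. The study's own list of 2-fold changes at ZT18, made from these same samples, holds Fos, Egr1, Ccn1 (as Cyr61), Socs3 and Gadd45a. That overlap is therefore no separate evidence.

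The median log2 fold change over the 38 genes was -0.30, with quartiles of -0.50 and 0.01, while over all tested genes it was 0.01, with quartiles of -0.20 and 0.23. Values below 0 were found for 27 member genes and above 0 for 11. The shift was seen on each array. Relative to the mean of the control arrays, the median member signal was -0.30, -0.30 and -0.28 on the TSR arrays, and -0.02, 0.01 and 0.02 on the control arrays. The groups did not overlap in 38 of 53 member probe sets (TSR below in 28, above in 10), against 56.6% of all tested probe sets (25.2% below, 31.4% above). The spread within a group was ordinary, with a median SD of 0.105 on the log2 scale for member probe sets and 0.103 for all.

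**Figure D1:**
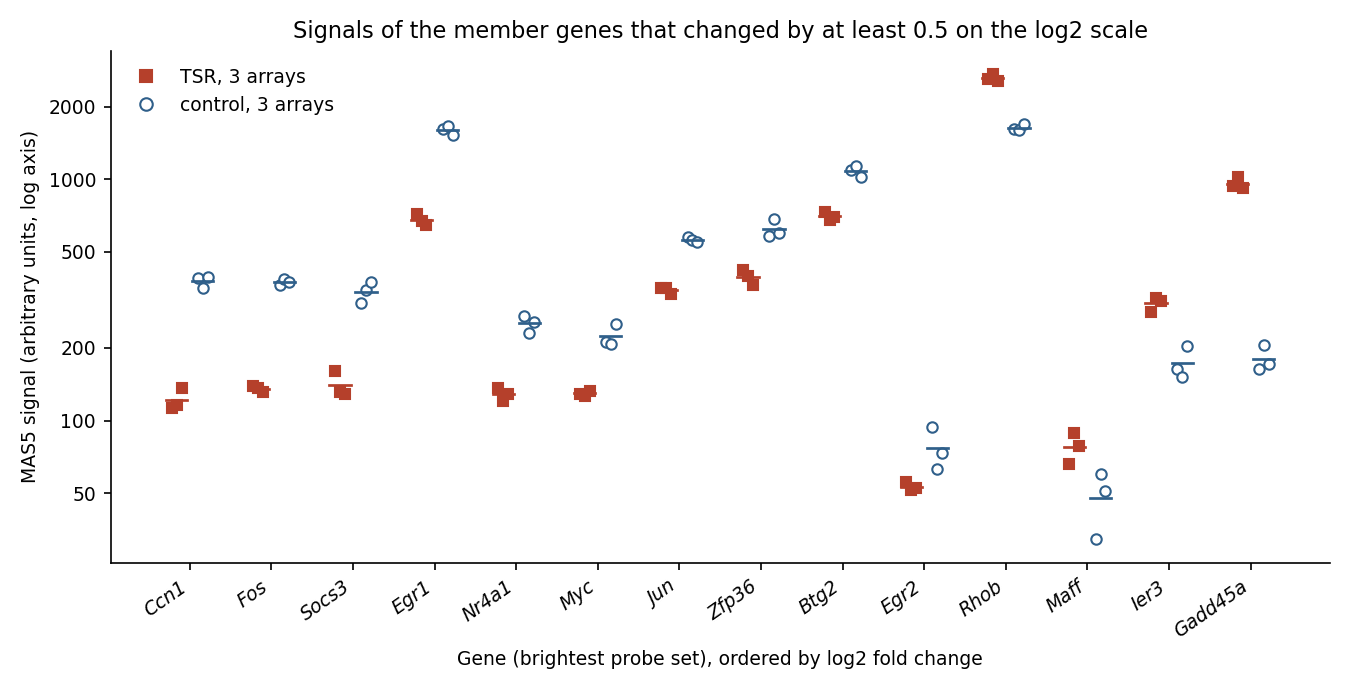
MAS5 signals (arbitrary units, log axis) of the 14 member genes called with an absolute log2 fold change of at least 0.5, by the brightest probe set. Squares are the 3 TSR arrays and circles the 3 control arrays of each gene, and lines are group means. TSR arrays lie below control arrays in 10 genes and above them in 4, with no overlap.

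AP-1 is a dimer of a Fos and a Jun protein. Fos gave signals of 139, 137 and 131 on the TSR arrays and 364, 386 and 375 on the control arrays. The groups were far apart and the 3 arrays of each lay close together, with means of 136 ± 4.16 in TSR and 375 ± 10.8 in control (SD, n = 3). The TSR mean was 36.2% of the control mean, a log2 fold change of -1.46 (SE 0.08, adjusted p = 2.2e-06).

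Jun, the usual partner of Fos, gave 354, 355 and 336 on the TSR arrays and 579, 559.5 and 549 on the control arrays by its brightest probe set. Its second probe set gave 319, 300.3 and 336 on the TSR arrays and 532, 449 and 552 on the control arrays. Both probe sets were thus lower on every TSR array and by nearly the same amount (log2 fold changes of -0.69 ± 0.06 and -0.68 ± 0.09 SE, adjusted p = 3.1e-05 and 0.00036). The other tested AP-1 genes, Junb, Jund and Fosl2, did not pass in this comparison. Junb, which can oppose Jun, gave 58.5, 55.8 and 57.2 on the TSR arrays and 74.0, 77.2 and 66.7 on the control arrays. All 3 TSR arrays lay below the controls, with a log2 fold change of -0.34 and an adjusted p of 0.088. Junb passed under other settings, by the test of the study's methods on linear (adjusted p = 0.031) and log2 signals (0.026), by limma without the intensity trend (0.0099), after quantile normalization (0.036) and after median centring (0.037). Jund, the AP-1 gene with steady expression in most cells, and Fosl2 had overlapping groups and log2 fold changes of -0.10 (adjusted p = 0.22) and -0.18 (adjusted p = 0.31). Of the dim genes, Fosb gave 1.05, 13.7 and 12.4 on the TSR arrays and 47.1, 29.4 and 26.6 on the control arrays. On each TSR array its signal was under the 25th percentile of that array, so its level there is only bounded. The control mean was 1.4 times that percentile, and Fosb did not pass (adjusted p = 0.091 without the filter). Fosl1 was near the floor of the arrays, with signals of 28.0 or less.

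Among the bZIP proteins that pair with AP-1 or bind related sites, Atf3, a stress-induced repressor, was lower with 132, 130.1 and 136 on the TSR arrays and 176, 218 and 161 on the control arrays. The TSR arrays were tightly grouped below the spread of the controls (log2 fold change -0.47, SE 0.13, adjusted p = 0.014). Maff, a small Maf protein without a transactivation domain, went the other way, with 65.9, 88.9 and 78.4 on the TSR arrays and 32.2, 60.2 and 50.9 on the control arrays. Control 1 was the lowest of the 6, and the groups came near each other (log2 fold change 0.74, SE 0.25, adjusted p = 0.037). Its call was lost without control 1 (0.48, adjusted p = 0.09), control 3 (0.81, 0.054), TSR 2 (0.64, 0.12) or TSR 3 (0.73, 0.084). The related Mafk had overlapping groups and a log2 fold change of 0.15 (adjusted p = 0.16).

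The Egr zinc-finger factors bind GC-rich sites and are among the fastest genes of the response. Egr1 gave signals of 720.2, 672 and 645 on the TSR arrays and 1616, 1661 and 1524 on the control arrays. Every TSR array was under 50% of every control array. The log2 fold change was -1.24 (SE 0.06, adjusted p = 9.9e-07), with means of 679 ± 38.1 in TSR and 1600.3 ± 69.4 in control (SD, n = 3).

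Egr2, which promotes early adipocyte differentiation, gave 55.6, 51.4 and 52.4 on the TSR arrays and 94.5, 63.2 and 73.4 on the control arrays. The TSR arrays were close to each other and the controls were spread (log2 fold change -0.52, SE 0.18, adjusted p = 0.045). The call was lost when control 1, control 3 or any 1 of the TSR arrays was left out (log2 fold changes of -0.55 to -0.36, adjusted p 0.082 to 0.15). It was also lost without the filter (adjusted p = 0.099) and by the methods' t-test on linear (0.12) and log2 signals (0.09). A second Egr2 probe set gave 36.0, 37.1 and 39.2 on the TSR arrays and 54.2, 62.4 and 103 on the control arrays, again with no overlap (log2 fold change -0.91, adjusted p = 0.015). Its TSR signals all lay under the filter level, so it was tested only through its control signals and gives no separate support for the call. Egr3 was below the filter, and its groups overlapped.

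Of the Nr4a orphan nuclear receptors, which are active without a bound hormone, Nr4a1 (Nur77) was lower. It gave 137, 121 and 129 on the TSR arrays and 272, 231 and 257 on the control arrays. The TSR mean was 50.9% of the control mean, with a log2 fold change of -0.97 (SE 0.10, adjusted p = 9.6e-05). Its relative Nr4a2 gave 73.7, 70.2 and 46.4 on the TSR arrays and 68.3, 63.3 and 54.3 on the control arrays. These groups overlapped, with a log2 fold change of 0.01 (adjusted p = 0.97), and the 2 Nr4a3 probe sets were below the filter.

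**Figure D2:**
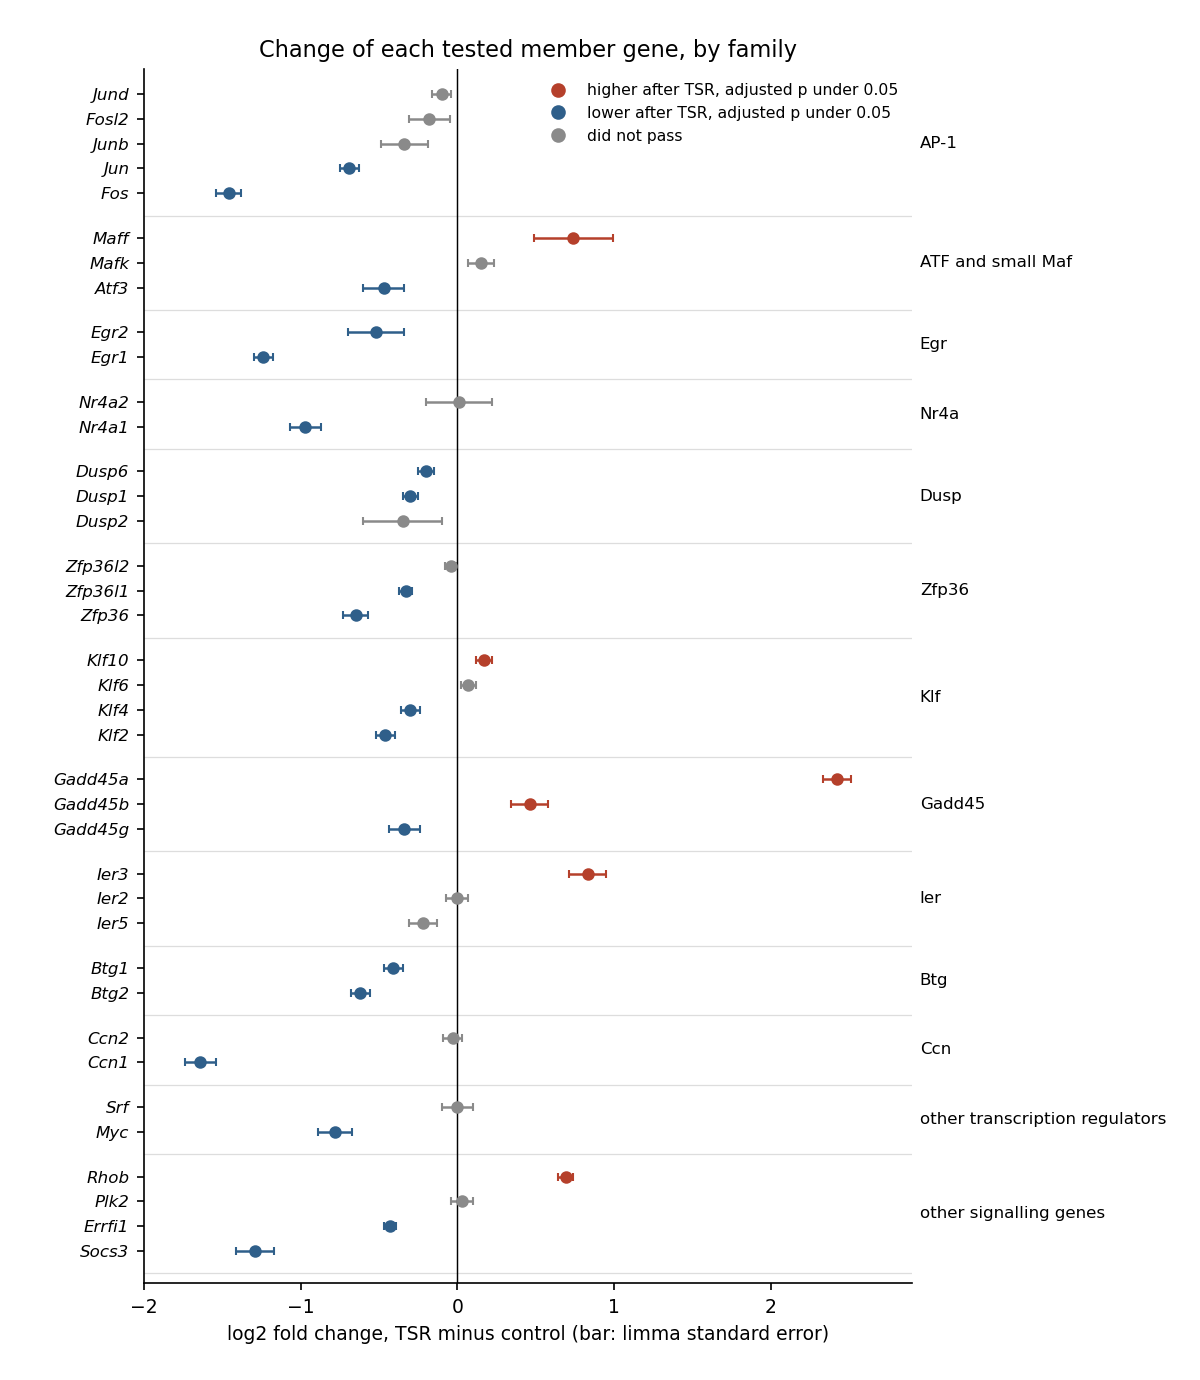
Log2 fold change (TSR minus control) of each of the 38 tested member genes by its brightest probe set, grouped by family. Points are limma estimates from 3 TSR and 3 control arrays, bars are standard errors, and colours show genes higher, lower or not passing. The largest values are Gadd45a at 2.42 and Ccn1 at -1.64.

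Several genes that end the response were lower. Dusp1, a nuclear phosphatase that removes the activating phosphates from p38, JNK and ERK, gave 1437, 1468 and 1392 on the TSR arrays and 1737, 1694 and 1845 on the control arrays. The 2 groups were separate, although the difference was modest (log2 fold change -0.30, SE 0.05, adjusted p = 0.0012). Dusp6, which acts on ERK in the cytoplasm, had a log2 fold change of -0.20 (SE 0.05, adjusted p = 0.0086). Dusp2 gave 50.6, 31.9 and 61.6 on the TSR arrays and 63.5, 59.4 and 54.9 on the control arrays, with TSR 2 far below the rest (log2 fold change -0.35, adjusted p = 0.28).

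Zfp36 (tristetraprolin), which binds AU-rich elements and speeds the decay of cytokine and immediate early mRNAs, gave 419, 396 and 366 on the TSR arrays and 580.5, 682 and 598 on the control arrays. All TSR arrays were below all controls, with a log2 fold change of -0.65 (SE 0.08, adjusted p = 0.00024). Its relative Zfp36l1 was measured by a pair of probe sets that were called in opposite directions. The brighter gave 3378, 3476 and 3387 on the TSR arrays and 4323, 4272 and 4250.2 on the control arrays. The dimmer gave 628, 682 and 674 on the TSR arrays and 546, 599 and 561 on the control arrays. The groups did not overlap in either (log2 fold changes of -0.33 and 0.22, adjusted p = 0.00021 and 0.016). No direction is given for this gene outside the counts, which use the brightest probe set. The bright probe set of Zfp36l2 had overlapping groups (log2 fold change -0.04, adjusted p = 0.5).

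Socs3, which blocks JAK-STAT signalling from leptin and cytokine receptors, was lower by 3 probe sets. The brightest gave 161, 131 and 129 on the TSR arrays and 307, 347 and 374 on the control arrays. The TSR mean was 41% of the control mean, with a log2 fold change of -1.29 (SE 0.12, adjusted p = 4.2e-05). This probe set and the next (log2 fold change -0.74, adjusted p = 0.00047) carry the suffix with which Affymetrix marks probes that can match other transcripts. The third probe set, without that suffix, gave 58.0, 63.4 and 69.3 on the TSR arrays and 113, 117 and 80.9 on the control arrays. Its groups did not overlap either (log2 fold change -0.69, SE 0.18, adjusted p = 0.012).

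Errfi1 (Mig6), a feedback inhibitor of the EGF receptor, was lower by its bright probe set, with 892, 917 and 908 on the TSR arrays and 1186, 1251 and 1213 on the control arrays. The difference was several times the spread within either group (log2 fold change -0.43, SE 0.04, adjusted p = 0.0001). Its dim probe set, with mean signals of 161 in TSR and 134 in control, had overlapping groups and a log2 fold change of 0.27 that did not pass (adjusted p = 0.15).

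The Krüppel-like factors did not move together. Klf2, known as a flow-responsive gene of endothelium and a brake on adipocyte differentiation, gave 625, 598 and 619 on the TSR arrays and 871, 877 and 789.6 on the control arrays. It was lower on every TSR array (log2 fold change -0.46, SE 0.06, adjusted p = 0.00026). Klf4, which acts early in adipocyte differentiation, was lower by both probe sets (log2 fold changes of -0.30 and -0.15, adjusted p = 0.0047 and 0.041). Its brighter probe set just missed the threshold by the methods' t-test on linear signals (adjusted p = 0.052). Klf10, a TGF-beta-induced and clock-controlled gene, gave 852, 828 and 860.0 on the TSR arrays and 744, 756 and 760.4 on the control arrays. It was slightly higher (log2 fold change 0.17, adjusted p = 0.015), and lost this call without TSR 1 (0.16, adjusted p = 0.055) or control 1 (0.16, adjusted p = 0.052) and after median centring of the arrays (0.06, adjusted p = 0.37). After quantile normalization the call was lost as well (0.12, adjusted p = 0.066).

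Klf6 was measured by 3 probe sets that gave different amounts of change. The brightest gave 1545, 1515 and 1639 on the TSR arrays and 1508, 1412 and 1563 on the control arrays. Its groups overlapped (log2 fold change 0.07, adjusted p = 0.32). The second gave 927, 1000.3 and 928 on the TSR arrays and 726, 779 and 672 on the control arrays, and the third gave 198, 228 and 226 on the TSR arrays and 103, 116 and 109.6 on the control arrays. Both of these were higher on every TSR array, with log2 fold changes of 0.39 (adjusted p = 0.0012) and 0.98 (adjusted p = 0.00012).

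The Gadd45 family, small stress-induced proteins that bind MEKK4 upstream of p38 and JNK and act in growth arrest and DNA demethylation, held the member with the largest change. Gadd45a gave 937, 1021 and 918 on the TSR arrays and 163, 206 and 171 on the control arrays. Every TSR array was more than 4 times every control array. The mean was 959 ± 54.9 in TSR and 179.7 ± 23.0 in control (SD, n = 3), a ratio of 5.33 and a log2 fold change of 2.42 (SE 0.09, adjusted p = 4.4e-07). The hepatocyte markers given above were also higher on the same 3 arrays, and their part in this value was not tested.

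Gadd45b gave 169, 159 and 208 on the TSR arrays and 127, 137 and 123 on the control arrays. TSR 3 was the highest, and all TSR arrays lay above the controls (log2 fold change 0.46, SE 0.12, adjusted p = 0.015). Without TSR 3 the log2 fold change was 0.34 and just missed the threshold (adjusted p = 0.05 after rounding). By the methods' t-test Gadd45b did not pass on linear (adjusted p = 0.08) or log2 signals (0.06). The second tested Gadd45b probe set had overlapping groups (log2 fold change 0.36, adjusted p = 0.19). Gadd45g gave 547, 616 and 557 on the TSR arrays and 789.7, 782 and 613 on the control arrays. Control 3 lay within the range of the TSR arrays, although the gene was called lower (log2 fold change -0.34, SE 0.10, adjusted p = 0.022). That call was lost without control 1, control 2, TSR 1 or TSR 3 (log2 fold changes of -0.32 to -0.27, adjusted p 0.059 to 0.08). It was also lost by limma without the intensity trend (adjusted p = 0.054) and by the methods' t-test on linear (0.13) and log2 signals (0.12). The 3 relatives thus had values of 2.42, 0.46 and -0.34, and the difference between them was not tested.

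Of the Ier genes, Ier3, a regulator of cell survival induced by growth factors and NF-kappa B, gave 281, 323 and 314 on the TSR arrays and 164, 152 and 204 on the control arrays. It was higher on every TSR array (log2 fold change 0.83, SE 0.12, adjusted p = 0.0006). Ier2 had the same mean signal of 395 in both groups, with overlapping arrays (log2 fold change 0.00, adjusted p = 0.99). Ier5 gave 282, 283 and 348 on the TSR arrays and 349, 348 and 363 on the control arrays. TSR 3 stood with the controls (log2 fold change -0.22, adjusted p = 0.078), and without it the value was -0.32 and passed (adjusted p = 0.011).

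Btg1 and Btg2, which restrain proliferation and recruit the CCR4-NOT deadenylase to mRNAs, were both lower by both of their probe sets. Btg2 gave 733, 677 and 698 on the TSR arrays and 1092, 1131 and 1022 on the control arrays by its brightest probe set. The log2 fold change was -0.62 (SE 0.06, adjusted p = 4.4e-05), and that of the other probe set was -0.70 (adjusted p = 0.00054). Btg1 gave 5811, 5623 and 6295 on the TSR arrays and 7712, 7613 and 8284 on the control arrays. Its groups did not overlap, with log2 fold changes of -0.41 (adjusted p = 0.00047) and -0.57 (adjusted p = 0.0085) by its 2 probe sets.

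The Ccn genes encode secreted matrix-associated proteins and are common targets of SRF and YAP. Ccn1 (Cyr61) had the largest fall of any tested member, with 113, 116 and 136 on the TSR arrays and 390.3, 355 and 395 on the control arrays. The TSR mean was 32.1% of the control mean, with a log2 fold change of -1.64 (SE 0.10, adjusted p = 4.1e-06). This brightest probe set can match other transcripts by its suffix. The second gave 72.3, 63.0 and 49.3 on the TSR arrays and 182, 171 and 154 on the control arrays, also without overlap (log2 fold change -1.47, SE 0.16, adjusted p = 0.00014). In contrast, Ccn2 (CTGF) gave 432, 448 and 437 on the TSR arrays and 449, 441 and 458 on the control arrays. Those groups overlapped, with a log2 fold change of -0.03 (SE 0.06, adjusted p = 0.66).

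Myc, a regulator of growth and ribosome synthesis, gave 129, 127 and 133 on the TSR arrays and 211, 207 and 252 on the control arrays. The TSR arrays were close to each other and all below the controls (log2 fold change -0.78, SE 0.11, adjusted p = 0.00044). Srf, the factor that binds the CArG box, had overlapping groups by its brighter probe set (means of 228 in TSR and 227 in control, log2 fold change 0.00, adjusted p = 0.97). Its dimmer probe set gave 182, 176 and 161 on the TSR arrays and 121, 151 and 97.6 on the control arrays, and was called higher (log2 fold change 0.51, SE 0.16, adjusted p = 0.026).

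Rhob, a short-lived GTPase of endosomes that is induced by stress and growth factors, was higher. It gave 2602, 2732 and 2545 on the TSR arrays and 1615, 1595 and 1688 on the control arrays. The groups were well separated (ratio of means 1.61, log2 fold change 0.69, SE 0.05, adjusted p = 7.7e-06). Plk2, a polo-like kinase, had overlapping groups (log2 fold change 0.03, adjusted p = 0.78). Ptgs2 (COX-2), the inducible enzyme of prostaglandin synthesis, was below the filter. Its brighter probe set gave 15.8, 9.36 and 17 on the TSR arrays and 42.0, 23.6 and 25 on the control arrays. Each TSR signal was under the 25th percentile of its array, only control 1 stood well above that level, and the gene did not pass (adjusted p = 0.087 without the filter). Its other probe set had overlapping groups (adjusted p = 0.2).

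**Figure D3:**
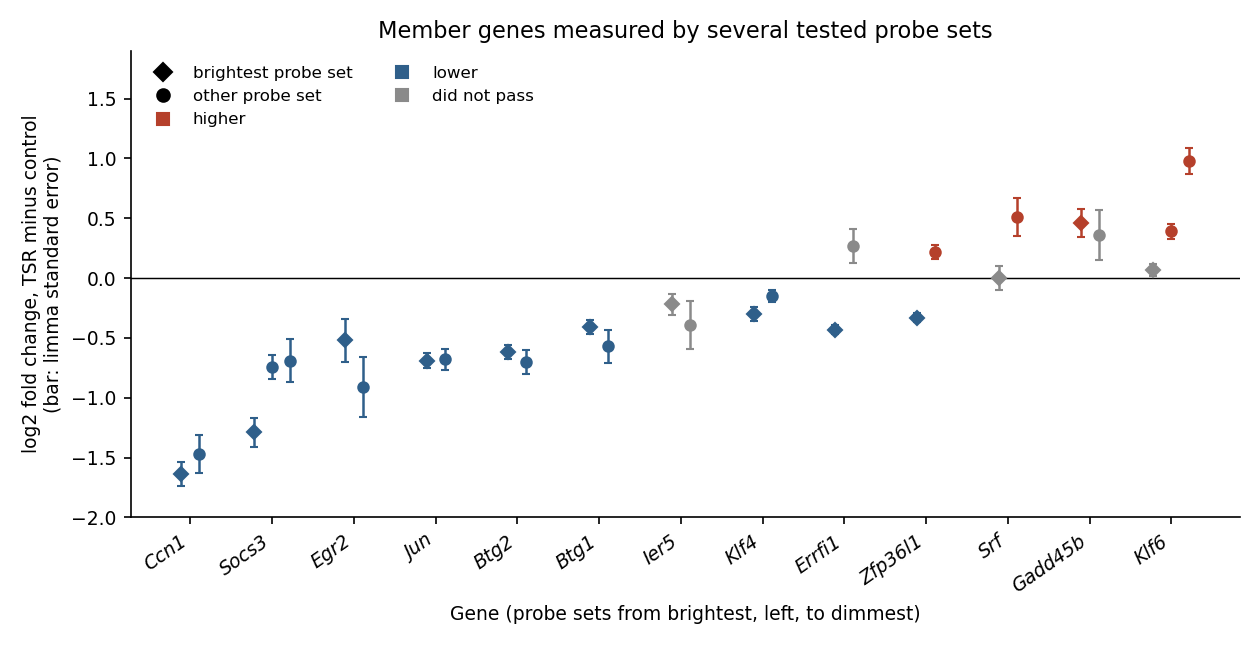
Log2 fold change (TSR minus control) of each tested probe set of the 13 member genes with 2 or more, from the brightest (diamond) to the dimmest. Bars are limma standard errors from 3 TSR and 3 control arrays, and colours show probe sets higher, lower or not passing. In 7 genes all probe sets were lower, and Zfp36l1 is the 1 gene called in both directions. Over all tested probe sets 21.0% were lower and 25.6% higher.

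Several members were measured by more than 1 probe set. Of 13 such genes, all tested probe sets were lower in 7 (Jun, Egr2, Klf4, Btg1, Btg2, Ccn1 and Socs3), and 1, Zfp36l1, had calls in both directions. In Klf6, Gadd45b, Srf and Errfi1 at least 1 probe set passed and another did not, and neither Ier5 probe set passed. Probe sets of a gene read the same RNA samples and are not replicates. The 5′ minus 3′ values of the control genes, given above, also differed between the groups. Their part in the differences between probe sets of a gene was not tested.

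**Figure D4:**
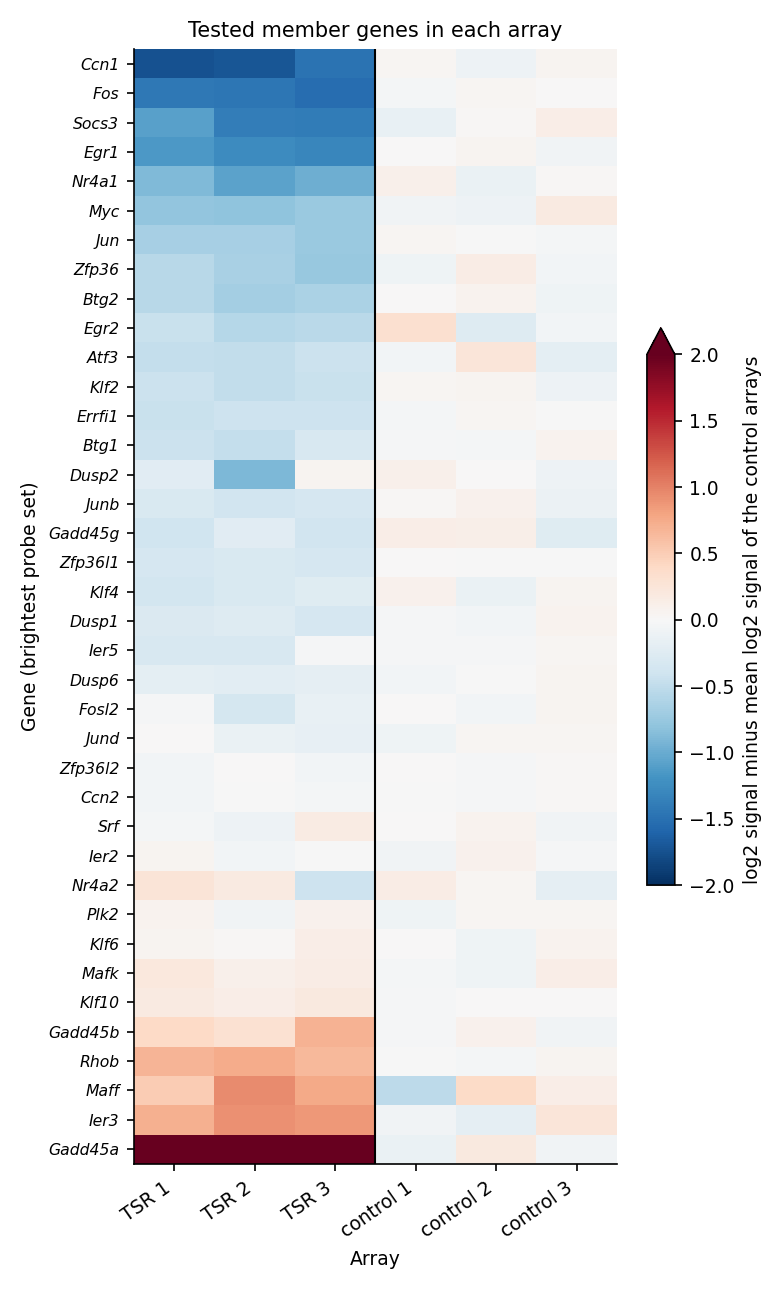
Log2 signal of each of the 38 tested member genes on each array, minus the mean log2 signal of the control arrays, with the 3 TSR arrays left of the 3 control arrays and genes ordered by log2 fold change. Blue is lower and red higher, and the colour scale ends at 2, which Gadd45a passes on the TSR arrays. The TSR arrays share their pattern, and TSR 2 stands out for Dusp2.

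Other genes of the same pathways are given as counts, to be read against the 24.0% higher and 23.0% lower of all tested genes (47.0% called). Differences between lists were not tested. Of 39 tested further immediate early and primary response genes, 8 were higher and 16 lower (61.5% called, median log2 fold change -0.12). Those with the largest changes were Bhlhe40, a clock-linked repressor (1814 ± 66.8 in TSR and 273 ± 42.4 in control, log2 fold change 2.74), Trib1, a regulator of protein turnover (102 ± 17.4 in TSR and 29.3 ± 8.67 in control, 1.83) and Nfil3, a bZIP repressor of the clock output (864 ± 74.0 in TSR and 277 ± 3.71 in control, 1.64; adjusted p = 3.5e-07, 0.00047 and 7.6e-07). The control mean of Trib1 was under the filter level, so Trib1 was tested only through its TSR signals. Among the lower ones, Klf9, a glucocorticoid-induced factor named for having the highest signal in the list, averaged 4908 ± 151 in TSR and 6705 ± 207 in control (SD, n = 3, log2 fold change -0.45, adjusted p = 8.6e-05).

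Upstream of the members, 8 of 16 tested ERK, JNK and p38 kinase genes were higher and 0 lower (50% called, median 0.18), led by Mapkapk2, a kinase activated by p38 (910.1 ± 54.3 in TSR and 579 ± 8.96 in control, log2 fold change 0.65), and Map2k2, which activates ERK (0.63), with Mapk14, p38 alpha, at 0.39. Rps6ka3, a kinase activated by ERK and named for its high signal, had a log2 fold change of 0.14 (adjusted p = 0.038). Of 9 SRF and CREB pathway factors 1 was higher (Crtc3, a CREB coactivator, 0.41) and 1 lower (Elk4, a partner of SRF, -0.21). The remaining 7 did not pass, and the list's median was -0.05. These values are RNA levels and say nothing of kinase activity.

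Of 14 other feedback inhibitors of growth factor signalling, 5 were higher and 3 lower (57.1% called). Dusp7, an ERK phosphatase, averaged 182 ± 12.1 in TSR and 93.0 ± 8.47 in control (log2 fold change 0.97, adjusted p = 0.00021), whereas Socs2 and Cish, relatives of Socs3 and targets of STAT5, had log2 fold changes of -0.90 and -0.62 (adjusted p = 5.4e-06 and 0.0063). Dusp3, named for its high signal, was at 0.12. Of 11 other AP-1 partners, 5 were higher and 2 lower (63.6% called), with Atf4, the stress-response factor, at 0.90, Atf5 at 0.76 and Batf3 at -1.04. Of 15 cytoskeletal SRF targets, 4 were higher and 6 lower (66.7% called), with Fhl1 at 0.89, Tpm2 at -0.76, Tagln at -0.70 and Actb, the gene of highest signal, at -0.27. Of 9 YAP and TEAD targets and factors, 3 were higher and 2 lower (55.6% called), with Crim1 at -0.49, Amotl2 at 0.40, Yap1 at 0.32 and Wwtr1, named for its high signal, at -0.11. All genes named here passed the threshold, Dusp3 and Wwtr1 narrowly (adjusted p = 0.05 after rounding and 0.043).

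**Figure D5:**
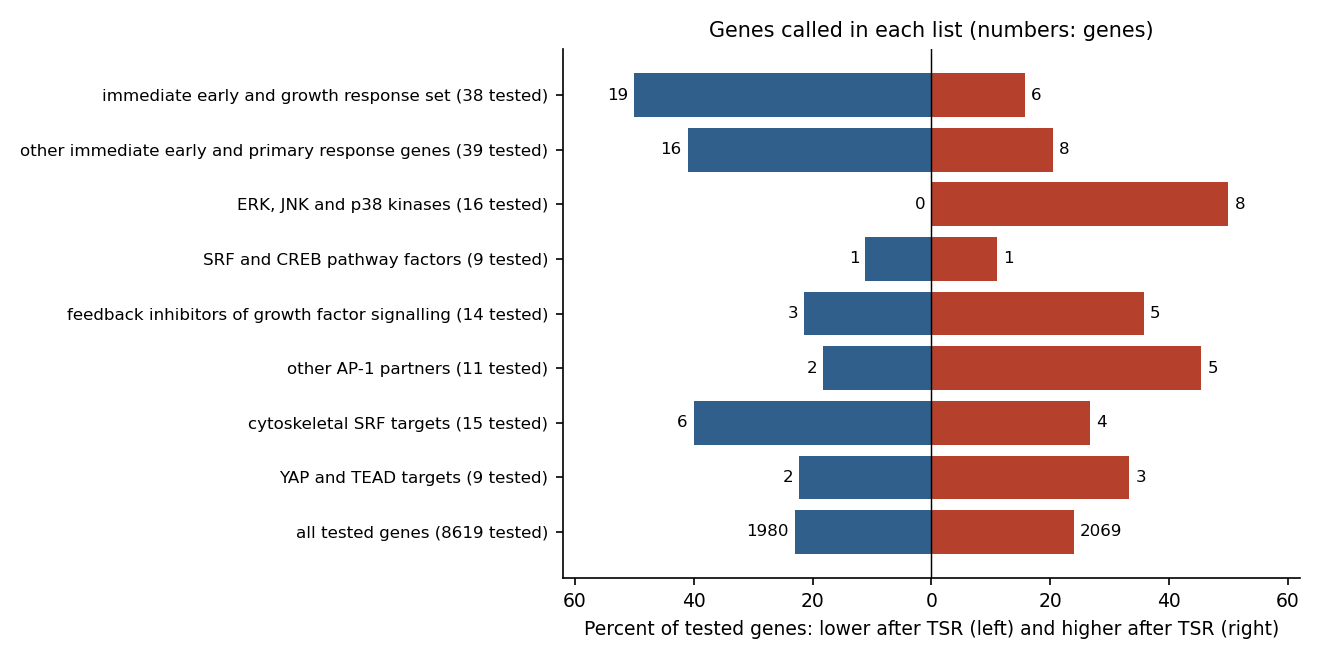
Share of tested genes (percent) called lower (left of 0) and higher (right of 0) after TSR in the immediate early and growth response set, in lists of related genes and among all tested genes, from 3 TSR and 3 control arrays. Numbers at the bars are genes. The immediate early set has 19 lower and 6 higher genes, and the kinases have 0 lower and 8 higher. Genes count by their brightest probe set, and the 19 include Zfp36l1, whose other probe set was called higher.

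Fibroblast markers, like those of macrophages, were mostly lower after TSR, with 7 of 10 lower and 1 higher, and sums of 30676 to 33382 on the TSR arrays and 44938 to 48744 on the control arrays. Endothelial markers were split, with 3 of 10 higher and 4 lower. Of 7 tested mural cell markers 4 were lower and 1 higher (Cspg4, log2 fold change 0.97). Among all tested genes 23.0% were lower and 24.0% higher (47.0% called). The part of these cell types in the values of Fos, Egr1 and the other lower members was not tested.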

How the data were processed

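The authors hybridised RNA of 3 TSR and 3 control WAT samples to Affymetrix mouse arrays and deposited MAS5 signal intensity values on a linear scale, scaled by them to one target on each array (a trimmed mean of 500.0 on each). Depth has no meaning here, and precision is limited by how many arrays were run. Raw scans were not used, and 0 sample columns were left out. Groups came from the sample labels.

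Signals were taken to log2. Probe sets under a mean log2 signal of 5.453 (the lowest 35%) and 64 control probe sets were not tested. TSR and control were compared by a two-sided moderated test (limma 3.58.1, R 4.3.3, eBayes with trend), with Benjamini-Hochberg adjustment over 14707 probe sets and a threshold of 0.05. Differences are TSR minus control, and percentages of control and ratios are of mean linear signals. A gene was represented by its brightest tested probe set, by mean log2 signal. Where a gene's TSR signals were all under the array's 25th percentile, its mean control signal, on the log2 scale, was set against these percentiles. The computation was tested on simulated data.

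The members, the gene lists and the tests were chosen with earlier results of these data known. Values per array are given for each called member gene with an absolute log2 fold change of at least 0.5, for relatives that moved the other way and for genes with probe sets called in both directions, and further members were added after their values were seen. From each list, up to 3 called genes with the largest change and the gene with the highest signal are named. Promoters are from RefSeq, and the 7 shown are those of the largest changes among called genes with a motif match and an entry, outside chromosome 18.

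The alternatives were the t statistic of the study's methods on linear and log2 signals, limma without the trend, quantile normalization, median centring, other filters, a floor at the 25th percentile, the mean or the dimmest probe set of a gene, a block for the replicate number, and the omission of single arrays. Same-numbered samples of the groups were not taken as pairs.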

Additional observations from a re-analysis of the deposited data

How the results depend on the processing

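The excess of lower members kept its direction under each alternative run. Of the 25 called genes, 13 of 19 lower ones (Fos, Jun, Egr1, Nr4a1, Dusp1, Dusp6, Zfp36, Klf2, Btg1, Btg2, Ccn1, Myc and Socs3) and 3 of 6 higher ones (Gadd45a, Ier3 and Rhob) kept their call in all of them. Atf3, Maff, Egr2, Zfp36l1, Klf4, Klf10, Gadd45b, Gadd45g and Errfi1 lost theirs in at least 1, and Junb, Jund, Zfp36l2, Klf6, Ier5 and Srf gained one in at least 1. Higher member probe sets numbered 10, but 6 after quantile normalization and 6 after median centring, with 29 and 31 lower against 27. The shares over all tested probe sets moved too: with quantile normalization 21.1% of them were higher and 23.0% lower, with median centring 16.7% were higher and 29.7% lower, against 25.6% and 21.0% otherwise. The median over all tested probe sets moved by -0.11 with median centring and by -0.05 with quantile normalization. With each array left out in turn, higher probe sets numbered 6 to 10, with 6 without control 1, and those at least 2-fold higher 1 to 2, with 2 without control 2 or TSR 1. The median log2 fold change of members was -0.30, and -0.41 after median centring, -0.33 without the filter, -0.21 with the mean of probe sets, -0.19 with the dimmest probe set and -0.32 to -0.25 with arrays left out. By the dimmest probe set, Zfp36l1 (0.22) and Errfi1 (0.27) changed sign. The methods' t statistic on linear signals called 28 of 53 member probe sets (35.5% of all). The cause of these changes was not tested. Correlations of deviations between same-numbered samples were 0.01527, 0.1914 and 0.1745, and those between differently numbered samples ran from -0.2185 to 0.05767. These values do not decide whether the numbers mark pairs. The study does not state pairing, and the numbers were not taken as pairs. With the replicate number as a block, 26 genes and 37 probe sets were called, and Ier5 passed (adjusted p = 0.049). Signals near background, as for Fosb and Ptgs2, limit what can be read.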
